A study of Mus musculus with 2 samples.

Results

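The genes described here are 10 axon guidance and repulsion genes, chosen by name as the rows of ephrins (Efna1, Efnb1, Efnb2, Efnb3), Eph receptors (Epha4, Ephb1), netrin-1 (Ntn1) with its receptors (Dcc, Unc5b) and repulsive guidance molecule A (Rgma). All 10 were found once each among the 31053 gene rows of both libraries. They are described in oligodendrocyte progenitor cells (OPCs), newly formed oligodendrocytes (NFOs) and oligodendrocytes, which are the types assigned to cell barcodes in the deposited tables, with and without optic nerve crush (ONC).

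Ephrins are membrane-bound ligands of the Eph receptor tyrosine kinases. Contact between them sends signals into both cells and commonly turns growing axons away, and ephrin-B3 is known as a growth inhibitor of myelin. Netrin-1 is a secreted cue that attracts axons through DCC and repels them through UNC5 receptors, whereas RGMa is a membrane-anchored repellent that binds neogenin and is known from myelin and from scars of the central nervous system.

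For single-cell sequencing, tissue around the lesion was taken from 5 optic nerves 2 weeks after ONC, and 5 nerves without injury served as the control, each set pooled into 1 library. All mice were wildtype, of the strain 129S1/SvlmJ, with males and females pooled. The study's methods give an age of 10 weeks, with ONC at 8 weeks in the injured mice, while 56 days is the age in the labels, which name the crush for both samples, so the uninjured library was recognized by its title. Because the nerves were pooled and each condition has 1 library, no difference has a replicate check, no p-values were computed, and the mouse, the library and the injury cannot be told apart.

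The uninjured library held 959 barcodes with 4414834 UMIs (unique molecular identifiers, each counting 1 captured transcript) and the injured library 410 barcodes with 2771797 UMIs. They comprised 58 and 17 OPCs, 44 and 100 NFOs, and 857 and 293 oligodendrocytes, respectively, and no barcode sequence was shared. All 8 OPC markers of a fixed list were found in at least 25% of OPC barcodes and all 10 oligodendrocyte markers in at least 25% of oligodendrocyte barcodes of both libraries, and 6 (uninjured) and 7 (injured) of 8 NFO markers in NFO barcodes. The oligodendrocytes of the libraries differed in depth and in nuclear RNA. The median of the injured ones was 1268 UMIs against 3060 in uninjured ones, 84 barcodes with 8000 or more UMIs held 86.9% of their UMIs, and 45.4% of their barcodes (5.60% of uninjured ones) had under 0.5% of UMIs from Malat1, a nuclear transcript. NFOs of both libraries were shallow too, with medians of 1259.5 and 1258.5 UMIs, and 63.6% and 77% of their barcodes lay under 0.5% Malat1, which applies to each ratio of NFOs to oligodendrocytes below. The summed level of 10 immune and macrophage markers was 261 CPM in injured and 21.2 CPM in uninjured oligodendrocytes, so the ratios of the genes with the most UMIs in this type are also given by depth and Malat1 share. CPM is a gene's count over the summed UMIs of a type, scaled to 1000000, and since UMIs count molecules by their 3′ ends the levels do not scale with gene length. Intervals are at 95% throughout and describe counting error only.

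In both libraries the oligodendrocytes held nearly all UMIs of Efnb3, Ephb1 and Unc5b, whereas OPCs and NFOs held nearly all UMIs of Ntn1. Rgma was found in all 3 types. Of the UMIs of both libraries together, oligodendrocytes held 99.3% for Efnb3, 99.6% for Unc5b, 98.4% for Ephb1, 92.8% for Rgma and 4.92% for Ntn1. By comparison, oligodendrocytes held 94.0% of all UMIs of the uninjured and 83.1% of those of the injured library. The plot of levels by type and library shows these patterns for the 10 genes.

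**Figure D1:**
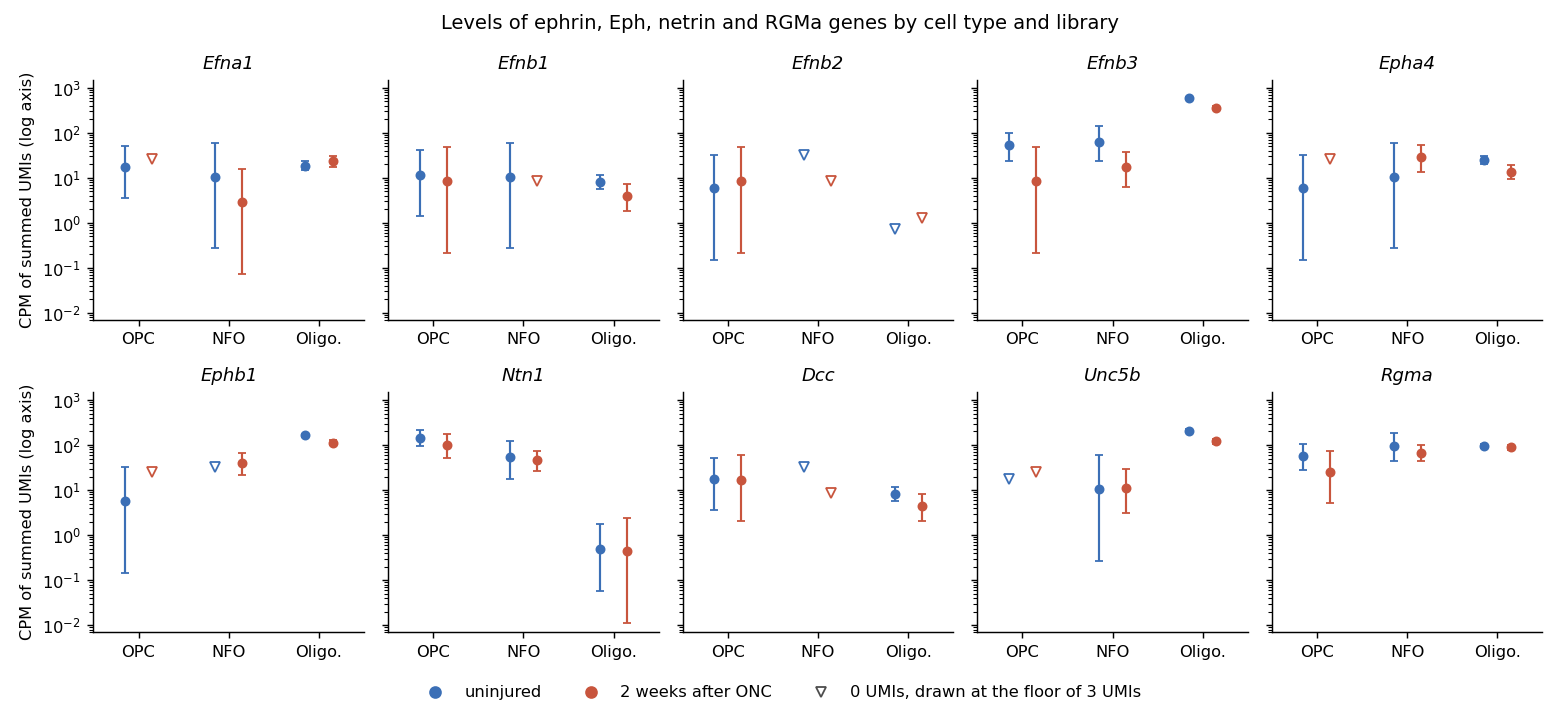
Level of each gene as CPM of summed UMIs (log axis) in OPCs, NFOs and oligodendrocytes of the uninjured library (blue) and the library from 2 weeks after ONC (red). Points carry exact Poisson 95% intervals, and open triangles mark types with 0 UMIs, drawn at the floor of 3 UMIs. Efnb3, Ephb1 and Unc5b lie highest in oligodendrocytes of both libraries, Ntn1 lies highest in OPCs (146 and 102 CPM), and Rgma lies between 25.5 and 95.6 CPM throughout.

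Among the ligands, Efnb3 (ENSMUSG00000003934; GRCm38 chromosome 11, 69554092 to 69560205, minus strand) encodes ephrin-B3, a transmembrane ligand. Its level in oligodendrocytes was 582 CPM (interval 560 to 606; 2417 UMIs) in the uninjured library and 362 CPM (338 to 387; 833 UMIs) in the injured library. In NFOs it was 63.7 CPM (6 UMIs) and 17.1 CPM (6 UMIs), and in OPCs 52.5 CPM (9 UMIs) and 8.50 CPM (1 UMI), uninjured and injured. Oligodendrocytes of both libraries thus lay above the other 4 classes, and the injured ones lay beneath the uninjured ones, with intervals that did not overlap. The ratio of injured to uninjured oligodendrocytes was 0.621 (exact conditional interval 0.573 to 0.672). Efnb3 was detected in 76.8% of oligodendrocyte barcodes without injury (exact binomial interval 73.8 to 79.6%) and in 43.3% after it (37.6 to 49.2%). Such shares move with depth, whose medians were 3060 and 1268 UMIs. In barcodes with 8000 or more UMIs, with medians of 11054 and 22473 UMIs, the shares were 99.5% and 98.8%.

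The other ephrins were low. Efna1 (ENSMUSG00000027954; chromosome 3, 89271733 to 89281142, minus strand), which encodes the lipid-anchored ephrin-A1, was at 18.6 CPM (77 UMIs) in uninjured and 23.0 CPM (53 UMIs) in injured oligodendrocytes. Their ratio of 1.24 had an interval of 0.857 to 1.78, which includes 1, and it was 1.02 (0.673 to 1.54) in barcodes with 8000 or more UMIs. OPCs held 3 and 0 UMIs of Efna1, and NFOs 1 and 1 UMI. Efnb1 (ENSMUSG00000031217; chromosome X, 99136130 to 99148991, plus strand), which encodes the transmembrane ephrin-B1, was at 8.19 CPM (34 UMIs) in uninjured and 3.91 CPM (9 UMIs) in injured oligodendrocytes, and its ratio of 0.477 (0.201 to 1.02), given although it rests on under 50 UMIs, also had an interval that includes 1. Efnb2 (ENSMUSG00000001300; chromosome 8, 8617434 to 8661242, minus strand), encoding ephrin-B2, was found as 1 UMI in OPCs of each library and not in other types. The 0 UMIs in oligodendrocytes allow a level of up to 0.723 CPM (uninjured) and 1.303 CPM (injured), by a floor of 3 UMIs over the type.

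Of the receptors of these ligands, Ephb1 (ENSMUSG00000032537; chromosome 9, 101922128 to 102354693, minus strand), which binds B-class ephrins, was at 166 CPM (interval 154 to 179; 688 UMIs) in uninjured and 112 CPM (99.2 to 127; 259 UMIs) in injured oligodendrocytes. Their ratio was 0.678 (0.586 to 0.784), and a UMI was found in 42.5% and 30.7% of barcodes. These shares also move with depth and were 79.3% and 79.8% in barcodes with 8000 or more UMIs. OPCs held 1 UMI of Ephb1 in the uninjured and 0 in the injured library. NFOs held 0 UMIs in the uninjured library, which allows up to 31.9 CPM, and 14 UMIs over 8 of 100 barcodes in the injured library, 39.8 CPM (21.8 to 66.8). The upper end of the exact Poisson interval of the 0 UMIs is 39.2 CPM, so the NFO levels of the libraries were not distinguishable at this depth. Of the 14 UMIs, 3 came from the 8 injured NFO barcodes with 8000 or more UMIs and 11 from the other 92.

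Epha4 (ENSMUSG00000026235; chromosome 1, 77367185 to 77515088, minus strand) encodes a receptor that binds ephrins of both classes, ephrin-B3 included. It was at 25.3 CPM (20.7 to 30.6; 105 UMIs) in uninjured and 13.5 CPM (9.15 to 19.1; 31 UMIs) in injured oligodendrocytes, a ratio of 0.532 (0.344 to 0.801). NFOs held 1 UMI of Epha4 in the uninjured and 10 UMIs in 5 barcodes of the injured library (28.4 CPM, 13.6 to 52.3), all 10 in the 23 injured NFO barcodes with at least 0.5% Malat1. The injured NFO level was 2.11 times that of injured oligodendrocytes, with an interval of 0.923 to 4.42 that includes 1. OPCs held 1 and 0 UMIs.

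Ntn1 (ENSMUSG00000020902; chromosome 11, 68209364 to 68400823, minus strand) had the opposite order over the types. OPCs had 146 CPM (94.4 to 215; 25 UMIs) in the uninjured and 102 CPM (52.7 to 178; 12 UMIs) in the injured library, and NFOs had 53.1 CPM (17.2 to 124; 5 UMIs) and 45.5 CPM (26.0 to 73.8; 16 UMIs). Oligodendrocytes had 2 UMIs in 857 barcodes (0.482 CPM) and 1 UMI in 293 barcodes (0.434 CPM). OPCs and NFOs both lay above oligodendrocytes, and within each library the intervals of OPCs and NFOs overlapped. The OPC level was 303 times that of oligodendrocytes in the uninjured library, with a wide interval of 75.5 to 2637 since oligodendrocytes gave 2 UMIs. Ntn1 was detected in 31.0% of the 58 uninjured OPC barcodes (19.5 to 44.5%) and in 47.1% of the 17 injured ones (23.0 to 72.2%), whose median depths were 2290 and 4120 UMIs. Between libraries, the ratio was 0.699 (0.320 to 1.44) in OPCs and 0.856 (0.2997 to 2.99) in NFOs, and no difference was detectable at these counts.

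Unc5b (ENSMUSG00000020099; chromosome 10, 60762593 to 60831581, minus strand), a netrin receptor of the repulsive UNC5 family, was nearly confined to the oligodendrocyte barcodes, which held 872 of its 873 uninjured and 277 of its 281 injured UMIs. Its level there was 210 CPM (196 to 225) in the uninjured and 120 CPM (107 to 135) in the injured library. The ratio was 0.572 (0.498 to 0.656), and a UMI was found in 51.8% and 34.8% of barcodes. These shares move with depth too, and in barcodes with 8000 or more UMIs they were 81.8% and 91.7%. OPCs of both libraries had 0 UMIs, so their level, taken at the floor of 3 UMIs, was at least 12.0-fold lower than that of oligodendrocytes in the uninjured and at least 4.72-fold lower in the injured library. NFOs held 1 and 4 UMIs, 10.6 and 11.4 CPM.

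Dcc (ENSMUSG00000060534), which encodes the receptor through which netrin-1 attracts axons, was low in every type. Oligodendrocytes had 8.19 CPM (34 UMIs) and 4.34 CPM (10 UMIs), with a ratio of 0.530 (0.234 to 1.10), and OPCs had 17.5 CPM (3 UMIs) and 17.0 CPM (2 UMIs), uninjured and injured. No UMI was found in NFOs, which allows up to 31.9 and 8.53 CPM.

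Rgma (ENSMUSG00000070509; chromosome 7, 73375509 to 73419899, plus strand) was found at 25.5 CPM or more in each type of both libraries. Oligodendrocytes had 94.0 CPM (84.9 to 104; 390 UMIs) in the uninjured and 89.5 CPM (77.7 to 103; 206 UMIs) in the injured library. NFOs had 95.6 CPM (43.7 to 182; 9 UMIs) and 68.2 CPM (43.7 to 101; 24 UMIs), and OPCs had 58.4 CPM (28.0 to 107; 10 UMIs) and 25.5 CPM (5.26 to 74.6; 3 UMIs). Except for injured OPCs against oligodendrocytes of either library, these intervals overlapped. The ratio between libraries was 0.952 (0.800 to 1.13) in oligodendrocytes and 0.713 (0.320 to 1.74) in NFOs.

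With the types compared within a library, 6 genes had at least 50 UMIs in OPCs and oligodendrocytes of the uninjured library together. Of these, 4 (Efnb3, Ephb1, Unc5b, Epha4) were at least 2-fold lower in OPCs. Since oligodendrocytes held 94.0% of all uninjured UMIs, the 6 genes reached 50 UMIs almost wholly through oligodendrocytes. Ntn1, higher in OPCs on 25 against 2 UMIs, did not reach that minimum in any of these comparisons. The counts of genes lower or higher thus depend on the minimum and are not read as a result about the 10 genes. The ratios of OPCs to oligodendrocytes were 0.0902 (0.0412 to 0.171) for Efnb3, 0.0352 (0.000890 to 0.197) for Ephb1 and 0.231 (0.00579 to 1.31) for Epha4, which rests on 1 UMI. Over all genes with at least 50 UMIs, 17.5% were that much lower and 18.6% that much higher. In NFOs of the uninjured library the same 4 of 6 were at least 2-fold lower than in oligodendrocytes (16.0% of all genes lower, 17.7% higher), with Epha4 again on 1 UMI at 0.420 (0.0105 to 2.39). In the injured library 4 of 5 were at least 2-fold lower in OPCs, Rgma among them at 0.285 (0.0583 to 0.845) with Efnb3, Ephb1 and Unc5b (20% of all genes lower, 18.4% higher). Also in the injured library, 4 of 5 (Efnb3, Ephb1, Unc5b, Efna1) were at least 2-fold lower in NFOs (19.4% of all genes lower, 13.5% higher). Rgma was at 1.02 (0.462 to 1.95) of the oligodendrocyte level in uninjured and 0.762 (0.478 to 1.17) in injured NFOs. Several of these calls were lost under other choices. Epha4 was at 0.807 (OPCs) and 0.679 (NFOs) with a stricter filter of 500 genes and 10% mitochondrial UMIs, and in OPCs at 0.512 with types reassigned from marker lists, 0.856 as a mean over barcodes and 0.729 without its richest barcode. With types reassigned from marker lists, which left 4 uninjured NFOs, Efnb3 in uninjured NFOs was at 0.624, Rgma in uninjured NFOs at 3.88 and Rgma in injured OPCs, which rests on 3 UMIs, at 0.696. Ephb1 in injured NFOs was at 0.647 as a mean over barcodes. The median gene found in both classes lay at 1.10 and 1.11 (OPCs and NFOs, uninjured) and 1.13 and 1.01 (injured) of its oligodendrocyte level, against which these ratios can be read.

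Free RNA in a droplet library adds UMIs to barcodes that do not express a gene, so the low levels were set beside the markers of the other type. In OPCs the 10 oligodendrocyte markers were at 0.525 to 35.4% (median 1.40%) of their oligodendrocyte level in the uninjured and at 0 to 3.58% (median 1.32%) in the injured library. The uninjured range reached above 2.32% through Mobp (28.4%) and Mbp (35.4%) alone. Efnb3 in OPCs was at 9.02% and 2.35% and Ephb1 at 3.52% and 0%, so that in the uninjured library both lay above 8 of the 10 markers, and whether these few UMIs came from the OPCs or from free RNA cannot be told apart. Rgma in OPCs was at 62.1% and 28.5% of its oligodendrocyte level, above the ranges of both libraries. The reverse held for Ntn1, whose level in oligodendrocytes was 0.330% and 0.426% of that in OPCs, within the range of the 8 OPC markers there (0.135 to 0.903% and 0.0123 to 2.35%). In NFOs the oligodendrocyte markers were at 0 to 55.7% and 1.26 to 60.9% of their oligodendrocyte level, uninjured and injured. Efnb3 (10.9% and 4.71%), Unc5b (5.06% and 9.45%) and Ephb1 (0% and 35.4%) lay within these ranges, whereas Rgma (102% and 76.2%) lay above them. Ranges this wide cannot separate free RNA from expression in NFOs. Whether the NFO counts of Efnb3, Unc5b and Ephb1 came from the NFOs or from free RNA thus cannot be told apart. Epha4 was at 42.0% and 211%, within the range in the uninjured and above it in the injured library. Ntn1 in NFOs was at 36.4% and 44.6% of its OPC level, within the range of the OPC markers there (9.42 to 224% and 4.44 to 276%). The same limit applies to its NFO counts.

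The comparison of injured with uninjured oligodendrocytes could be made for 6 genes with at least 50 UMIs. None was past 2-fold, against 4.06% of 8591 genes at least 2-fold lower and 5.98% at least 2-fold higher. The median ratio of the 6 genes was 0.650, and that of all genes 1.03. Unc5b, Efnb3, Ephb1 and Epha4 lay at 0.532 to 0.678, whereas Rgma and Efna1 lay at 0.952 and 1.24, with intervals that include 1. In the same barcodes the 10 oligodendrocyte markers had ratios of 0.630 (Opalin) to 1.04 (Mbp), with a median of 0.775, and 8 were below 1. Unc5b, Efnb3 and Epha4 thus had ratios beneath the lowest of the 10 markers, although the interval of Opalin (0.595 to 0.667) overlapped theirs, and Ephb1 lay within the range of the markers. In OPCs and NFOs no gene of the 10 reached 50 UMIs over both libraries.

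The ratios of Efnb3, Unc5b and Ephb1 between libraries lay furthest from 1 in the shallowest oligodendrocyte barcodes. Among oligodendrocyte barcodes under 2000 UMIs, 302 uninjured and 164 injured, the level of Efnb3 was 760 CPM (243 UMIs) and 173 CPM (23 UMIs), a ratio of 0.228 (0.142 to 0.350). Unc5b was at 260 CPM (83 UMIs) and 30.1 CPM (4 UMIs), a ratio of 0.116 (0.0309 to 0.308). Ephb1 was at 188 CPM (60 UMIs) and 60.2 CPM (8 UMIs), a ratio of 0.321 (0.132 to 0.674). Rgma, level in the type as a whole, also differed here, with 116 CPM (37 UMIs) and 15.1 CPM (2 UMIs) and intervals of 81.5 to 160 and 1.82 to 54.4 that did not overlap. All 4 genes were therefore lower in the shallow injured barcodes than in the shallow uninjured ones. These shallow injured barcodes differed from the uninjured ones in other ways: 74.4% against 11.9% had under 0.5% Malat1, the summed level of the 10 oligodendrocyte markers was 98517 against 61856 CPM, and that of the 10 immune markers, 10 of 10 and 6 of 10 found, was 2590 against 53.2 CPM. The part of these features in the lower levels was not tested. Where every barcode weighs alike, as a mean of CPM over barcodes, the ratios in oligodendrocytes were 0.381 for Efnb3, 0.345 for Unc5b, 0.472 for Ephb1, 0.196 for Epha4, 0.455 for Rgma and 0.838 for Efna1, so that 5 of the 6 genes were past 2-fold.

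In barcodes with 8000 or more UMIs, 203 uninjured and 84 injured with medians of 11054 and 22473 UMIs and none under 0.5% Malat1, the differences were smaller. Efnb3 was at 550 CPM (1341 UMIs) and 377 CPM (754 UMIs), a ratio of 0.685 (0.626 to 0.749). Unc5b was at 165 and 116 CPM (402 and 232 UMIs) and Ephb1 at 164 and 116 CPM (401 and 232 UMIs), with ratios of 0.703 (0.596 to 0.828) and 0.705 (0.597 to 0.831). Thus these 3 genes remained lower in the injured library within the deep barcodes, with intervals beneath 1. Rgma was at 80.8 CPM (197 UMIs) and 92.4 CPM (185 UMIs), a ratio of 1.144 (0.931 to 1.41), and Epha4 had a ratio of 0.656 with an interval of 0.399 to 1.06 that includes 1. The summed level of the immune markers in these deep barcodes was 86.5 CPM in the injured and 19.3 CPM in the uninjured library. That of the 10 oligodendrocyte markers was also lower in the injured deep barcodes, with 66682 CPM against 85060 CPM in the uninjured ones. The part of these levels in the ratios was not tested.

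**Figure D2:**
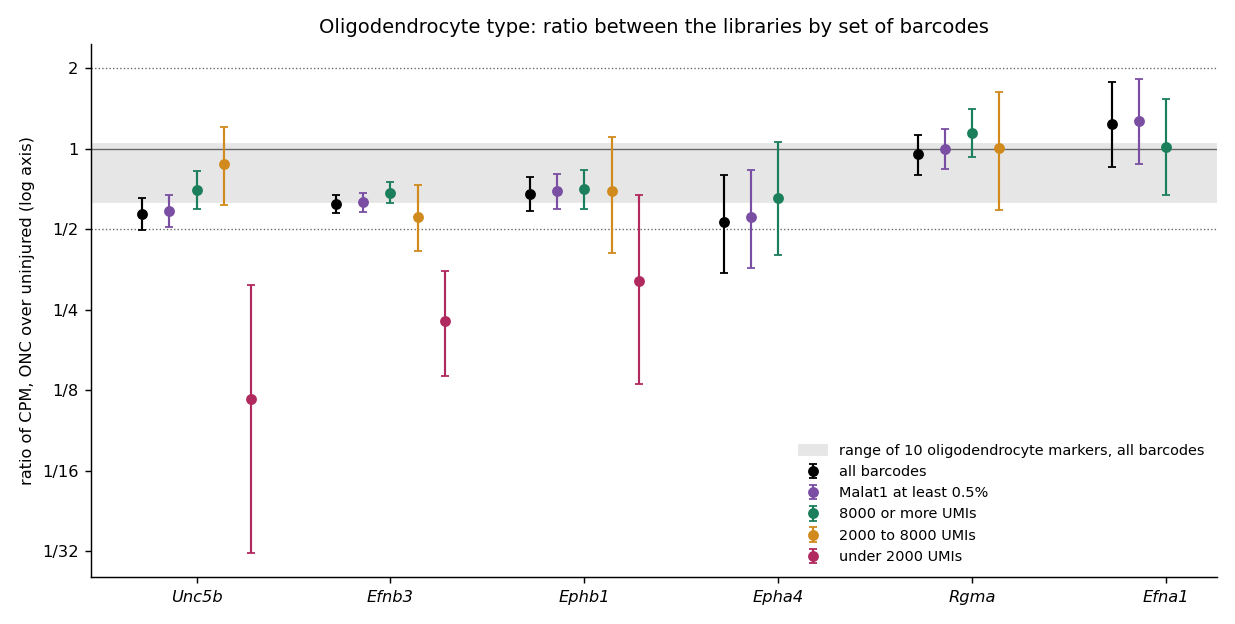
Ratio of CPM, 2 weeks after ONC over uninjured, in the oligodendrocyte type (log axis) for 6 genes, from all barcodes (black) and from sets by Malat1 share and depth, each where the set held at least 50 UMIs. Bars are exact conditional 95% intervals, dotted lines mark 2-fold, and the grey band is the range of the 10 oligodendrocyte markers (0.630 to 1.04). Unc5b, Efnb3 and Ephb1 lie below 1 in each set drawn and lowest in barcodes under 2000 UMIs (0.116, 0.228 and 0.321).

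Between these limits, in 352 uninjured and 45 injured barcodes of 2000 to 8000 UMIs, the ratio was 0.556 (0.416 to 0.729) for Efnb3, 0.692 (0.409 to 1.11) for Ephb1, 0.876 (0.619 to 1.21) for Unc5b and 1.01 (0.590 to 1.63) for Rgma. Efnb3 alone of the 4 had an interval beneath 1 in this set. Without the barcodes under 0.5% Malat1 the ratios were 0.630 for Efnb3, 0.585 for Unc5b, 0.693 for Ephb1, 0.554 for Epha4 and 0.999 for Rgma, close to those from all barcodes. The barcodes left out held 70126 of 4149375 uninjured and 128148 of 2302349 injured UMIs. Ratios of summed UMIs could therefore move little, and they do not show how the genes behave in the barcodes left out. In those barcodes Efnb3 was at 342 CPM (24 UMIs) in the uninjured and 226 CPM (29 UMIs) in the injured library. Its ratio of 0.661 (0.372 to 1.19) had an interval that includes 1. Unc5b was at 85.6 and 54.6 CPM (6 and 7 UMIs) and Ephb1 at 157 and 70.2 CPM (11 and 9 UMIs). Rgma was at 99.8 and 15.6 CPM (7 and 2 UMIs). Each of these 4 genes was lower in the injured library, with level intervals that overlapped. The genes also varied with depth within a library. Uninjured barcodes had 278 CPM of Unc5b at 2000 to 8000 UMIs and 165 CPM at 8000 or more, and the plot of levels by depth shows that the Efnb3 level was lower in deeper barcodes of the uninjured and higher in deeper barcodes of the injured library.

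**Figure D3:**
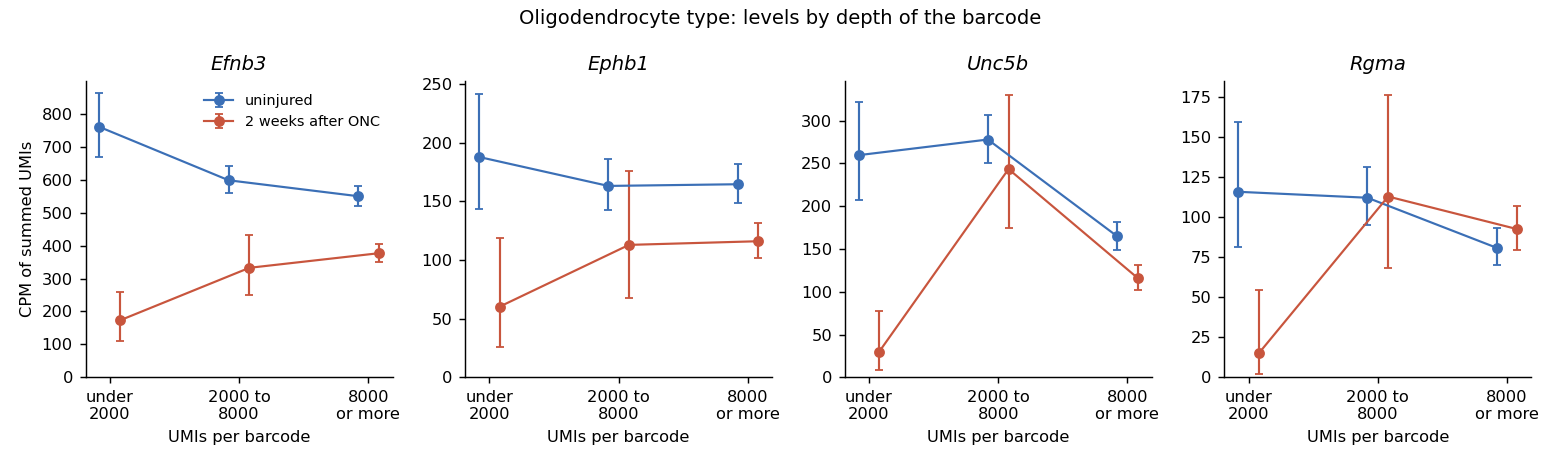
Level of 4 genes (CPM of summed UMIs, linear axis from 0) in oligodendrocyte barcodes with under 2000, 2000 to 8000 and 8000 or more UMIs, in the uninjured library (blue) and 2 weeks after ONC (red), with exact Poisson 95% intervals. For Efnb3 the levels run from 760 through 598 to 550 CPM in the uninjured and from 173 through 333 to 377 CPM in the injured library, and for Rgma the libraries differ in the shallowest set alone.

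Single barcodes were first compared at equal depth. With each barcode thinned to 500 UMIs, which left out 19 uninjured and 0 injured oligodendrocyte barcodes, a UMI was found for Efnb3 in 27.4% of uninjured and 15.0% of injured ones, for Unc5b in 12.9% and 2.39%, for Ephb1 in 7.64% and 4.78%, and for Rgma in 4.53% and 4.10%. The injured shares rest on 44, 7, 14 and 12 barcodes of 1 random draw. Without thinning, none of Efnb3, Ephb1, Unc5b and Rgma was found in 113 uninjured (13.2%) and 140 injured oligodendrocyte barcodes (47.8%). Their median depths were 804 and 707.5 UMIs. All 4 were found in 117 (13.7%) and 54 (18.4%) barcodes with medians of 9818 and 24533.5 UMIs. Without thinning, the injured oligodendrocytes thus had a higher share of barcodes with none of the 4 genes. The share with all of them was not lower. Both shares move with depth, whose median was 3060 UMIs in uninjured and 1268 UMIs in injured oligodendrocytes. The part of depth in them was not tested.

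Ligands and receptors were found in the same oligodendrocyte barcodes. Efnb3 and Ephb1 were detected together in 324 of 857 barcodes without injury (37.8%) and in 75 of 293 after it (25.6%), and Efnb3 with Epha4 in 72 (8.40%) and 16 (5.46%). Barcodes with both Efnb3 and Ephb1 had medians of 7920.5 and 22068 UMIs, and those with neither 975 and 733 UMIs, so that these counts move with depth. Efna1 was found with Epha4 in 9 and 7 barcodes. It was found in 36 and 27 with Ephb1, a receptor of B-class ephrins, which is not counted as a ligand with its receptor. Efnb1 was found with Ephb1 in 16 and 7 and with Epha4 in 3 and 2, and Efnb2 with neither receptor in any. Netrin-1 and its receptors seldom met. Among OPC barcodes, Ntn1 occurred with Dcc in 1 of 58 without injury and 2 of 17 after it, and with Unc5b in 0 OPC barcodes, in 0 uninjured and 1 injured NFO barcode, and in 2 and 1 oligodendrocyte barcodes.

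The promoters of the receptor genes whose oligodendrocyte levels were lower in the injured library are shown because these genes lay at similar ratios. They are RefSeq windows of 300 bases on GRCm38.p6, from 250 before to 50 after the start, printed 5′ to 3′ on the gene's minus strand, for Unc5b (chr10:60831532-60831831), Ephb1 (chr9:102354644-102354943) and Epha4 (chr1:77515039-77515338). Of the 10 genes, 6 had a window. Capitals mark matches, on either strand, to GGGCGG (or CCGCCC), a motif of SP factors.
Unc5b: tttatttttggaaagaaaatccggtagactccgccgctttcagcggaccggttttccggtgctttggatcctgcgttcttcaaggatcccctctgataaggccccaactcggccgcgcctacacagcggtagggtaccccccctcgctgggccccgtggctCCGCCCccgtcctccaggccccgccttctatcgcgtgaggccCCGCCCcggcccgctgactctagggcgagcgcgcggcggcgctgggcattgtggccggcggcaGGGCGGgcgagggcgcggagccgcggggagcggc
Ephb1: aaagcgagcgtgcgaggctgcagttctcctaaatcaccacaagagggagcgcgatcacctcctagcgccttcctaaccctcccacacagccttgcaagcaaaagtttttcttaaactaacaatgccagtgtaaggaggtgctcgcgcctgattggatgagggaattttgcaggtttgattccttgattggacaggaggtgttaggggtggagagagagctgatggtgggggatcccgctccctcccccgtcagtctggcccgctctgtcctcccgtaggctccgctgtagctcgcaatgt
Epha4: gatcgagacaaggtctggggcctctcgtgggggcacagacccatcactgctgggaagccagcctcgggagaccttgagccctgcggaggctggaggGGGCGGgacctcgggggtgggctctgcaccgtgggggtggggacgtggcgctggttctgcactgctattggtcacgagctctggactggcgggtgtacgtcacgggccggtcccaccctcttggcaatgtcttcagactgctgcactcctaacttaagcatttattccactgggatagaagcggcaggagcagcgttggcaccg
The windows hold 3, 0 and 1 matches to GGGCGG, which occurs in 35.7% of all 32851 such windows. None of the 3 holds CAGCTG, a palindromic E-box of basic helix-loop-helix factors (16.3% of windows), or ACAAAG or its reverse CTTTGT, a motif of SOX factors (18.7% of windows). GC content was 69.7%, 55.7% and 64.0%, against a median of 52.7% over all windows (quartiles 45.7 and 61.7%).

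The genes nearest to the 3 genes with the most UMIs, by the distance between log2(CPM + 10) profiles over the 6 classes of type and library among 5320 genes with at least 200 UMIs, were other genes of oligodendrocyte barcodes. For Efnb3 they were Pla2g16 (distance 0.956; 492 CPM in uninjured and 307 CPM in injured oligodendrocytes), Sez6l2 (1.18; 762 and 252 CPM) and Litaf (1.38; 389 and 383 CPM). For Unc5b they were Itgb4 (0.777; 216 and 145 CPM), Arsg (0.838; 187 and 167 CPM) and Carns1 (0.893; 158 and 126 CPM). For Ephb1 they were Insc (0.584; 110 and 119 CPM), Ppfibp2 (1.11; 153 and 198 CPM) and Plekhg3 (1.23; 108 and 90.3 CPM). Sez6l2 was lower in the injured library than Efnb3 in proportion, whereas the level of Litaf hardly differed, so that a near profile did not mean a similar ratio between the libraries.

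The other genes of these families and of their signalling were taken as a list of 60 genes with the 10 included. Of the 60, 7 had no UMI in any barcode (Efna3, Efna5, Epha2, Epha6, Epha8, Unc5d and Hfe2). In oligodendrocytes 28 reached 50 UMIs, 2 were at least 2-fold higher and 1 at least 2-fold lower in the injured library, and their median ratio was 1.04. These 3 calls among 28 genes stand beside the 5.98% higher and 4.06% lower over all genes. Ntn5, a netrin of the laminin-related family, was at 1.45 CPM (6 UMIs in 6 barcodes) in uninjured and 29.5 CPM (68 UMIs in 41 barcodes) in injured oligodendrocytes, a ratio of 20.4 (8.91 to 57.6). Of the 68 UMIs, 63 came from the 84 barcodes with 8000 or more UMIs, where 42.9% of injured and 1.97% of uninjured barcodes had one, at levels of 31.5 and 1.64 CPM. Sec1, which overlaps Ntn5 on the opposite strand, had 2 UMIs in each. Sdcbp, which encodes syntenin, a PDZ protein that binds B-class ephrins, was at 29.4 CPM (122 UMIs) and 65.2 CPM (150 UMIs), a ratio of 2.22 (1.73 to 2.84). The Sdcbp ratio was 4.33 (2.65 to 7.02) in barcodes under 8000 UMIs and 1.80 (1.34 to 2.42), short of 2-fold, in deeper ones. Epha10, an Eph receptor without kinase activity, was at 14.9 CPM (62 UMIs) and 3.47 CPM (8 UMIs), a ratio of 0.233 (0.0962 to 0.487). The Epha10 ratio was 0.180 (0.0459 to 0.518) in barcodes with 8000 or more UMIs and 0.649 (0.168 to 1.82), short of 2-fold, in shallower ones, on 4 injured UMIs each.

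By group, the median ratio in oligodendrocytes was 1.07 for 3 ephrins, 0.532 for 3 Eph receptors, 0.768 for 4 netrin receptors, 0.892 for 2 RGM genes and 1.22 for 15 signalling genes. The 3 genes of the list with the most UMIs were Rhoa and Cdc42, which encode GTPases of the cytoskeleton, followed by Efnb3. Rhoa was at 676 and 687 CPM, a ratio of 1.02 (0.955 to 1.08) that was 0.891 (0.832 to 0.954) in barcodes with 8000 or more UMIs, and Cdc42 at 443 and 547 CPM, a ratio of 1.24 (1.15 to 1.33). Neo1, which encodes neogenin, the receptor of RGMa, was at 114 and 122 CPM, a ratio of 1.07 (0.922 to 1.25), which was 0.829 (0.564 to 1.18) in barcodes under 8000 UMIs and 1.29 (1.07 to 1.54) in deeper ones.

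**Figure D4:**
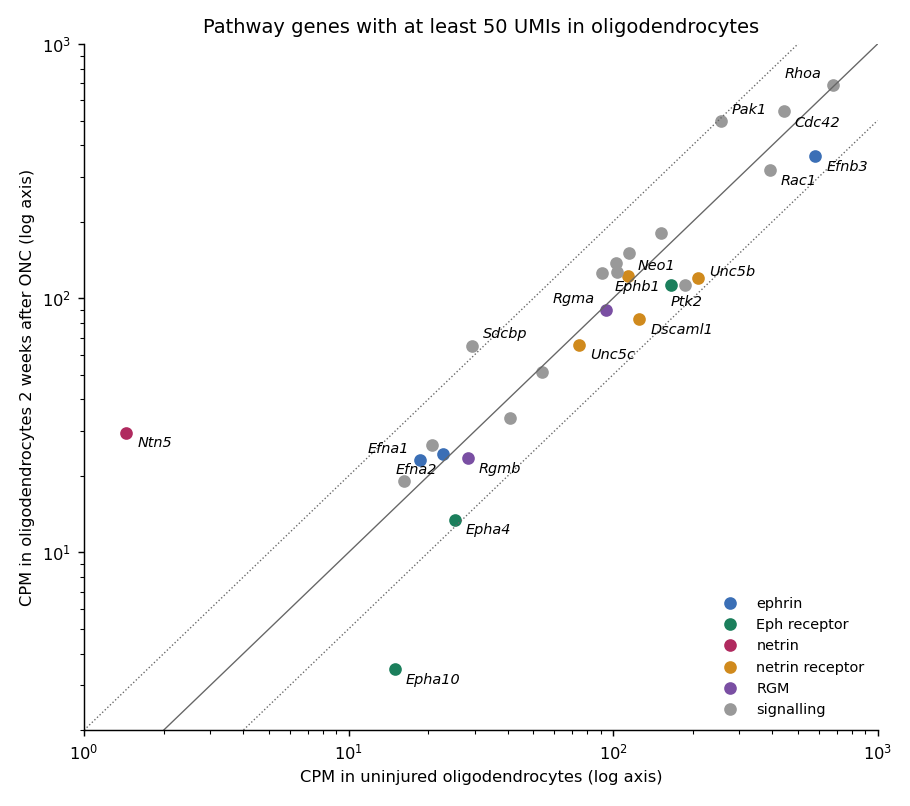
CPM in oligodendrocytes 2 weeks after ONC against CPM in uninjured oligodendrocytes (both log axes) for the 28 genes of the list with at least 50 UMIs, coloured by group. The solid line is equality and dotted lines are 2-fold. Ntn5 (1.45 and 29.5 CPM) and Sdcbp lie above the upper dotted line, Epha10 (14.9 and 3.47 CPM) lies beneath the lower one, and Efnb3, Unc5b, Ephb1 and Epha4 lie between equality and the lower line.

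In NFOs 7 genes of the list reached 50 UMIs, and Rhoa and Rock1, a kinase that RhoA activates, were at least 2-fold higher in the injured library (13.3% of 1695 genes higher, 4.01% lower). Rhoa was at 340 CPM (32 UMIs) and 753 CPM (265 UMIs), a ratio of 2.22 (1.53 to 3.31), and in barcodes with at least 0.5% Malat1 it was at 1.98 (1.22 to 3.40). Rock1 was at 63.7 CPM (6 UMIs) and 134 CPM (47 UMIs), a ratio of 2.10 (0.894 to 5.998) with an interval that includes 1, and at 1.62 in barcodes with at least 0.5% Malat1. In OPCs 4 genes reached 50 UMIs and none was past 2-fold (10.3% of 993 genes higher, 6.45% lower). Dscam, a netrin receptor, was at 228 CPM (39 UMIs) and 136 CPM (16 UMIs) in OPCs, a ratio of 0.598 (0.312 to 1.09). The summed level of the immune markers was 10.6 and 654 CPM in uninjured and injured NFOs and 23.3 and 255 CPM in OPCs, and its part in these ratios was not tested.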

How the data were processed

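The authors sequenced 10x Genomics libraries (1 per condition), processed the reads with bcl2fastq 2.17.1.14, Cell Ranger 1.3 and Seurat 4.0.3 on mm10, per the labels and methods, and removed cells with over 20% mitochondrial UMIs, under 200 genes or over 150000 UMIs, the last as a guard against doublets. No doublet caller was run here. The authors deposited normalized expression (NE), a natural log in which a gene's share of its barcode's UMIs, scaled by 10000, has 1 added. After the log was undone, the least value above 0 in a barcode was taken as 1 UMI, and whole UMIs within 0.001 were obtained in 100% of 1369 barcodes. The combined table held the same values and was not used further.

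UMIs were summed by type and library. CPM carry exact Poisson, shares exact binomial and ratios exact conditional 95% intervals. A ratio was computed for genes with at least 50 UMIs in the 2 classes together, called past 2-fold, with a floor of 3 UMIs for a class at 0 (a ratio against the floor that falls on the other side of 1 was set to 1 in the shares over all genes). Ratios on 20 to 49 UMIs and those of related genes by depth and Malat1 share were added after seeing the data. Intervals were tried on counts simulated with Poisson error alone. That simulation leaves out variation between barcodes, so it cannot show that the intervals cover more than counting error. The genes named are the 10, the related genes past 2-fold, the 3 with most UMIs, Neo1 and Dscam (chosen after their values were seen) and the 3 nearest profiles of 3 genes. The 10 genes and all lists were chosen with earlier results of these data known. Positions are from GENCODE vM21 (30438 of 31053 names matched), and no overlapping gene in the tables had over 9 UMIs for the 10 genes. Python 3.11.15, numpy 2.4.6, scipy 1.17.1, pandas 2.3.3 and matplotlib 3.10.9 were used.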

Additional observations from a re-analysis of the deposited data

How the results depend on the processing

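The count of genes past 2-fold between the oligodendrocyte libraries, 0 of 6, was also 0 with a stricter filter (500 genes or more, mitochondrial share up to 10%), types from marker lists, at least 0.5% Malat1, the median ratio of genes set to 1, at least 200 UMIs and 3-fold. It was 5 of 6 with the mean CPM over barcodes, which gives shallow barcodes equal weight, 2 of 4 with barcodes thinned to 500 UMIs, 2 of 5 in barcodes under 8000 UMIs, 1 of 6 without the richest barcode of each gene, 1 of 8 with at least 20 UMIs, and 3 of 6 at 1.5-fold. Over 6 to 8 alternatives a gene, the ratio of Efnb3 (0.621) ran from 0.381 to 0.666, Unc5b (0.572) from 0.171 to 0.593, Ephb1 (0.678) from 0.472 to 0.705, Epha4 (0.532) from 0.196 to 0.568 and Rgma (0.952) from 0.455 to 0.999, and these stayed below 1, whereas Efna1 (1.24) was at 0.838 with the mean CPM over barcodes and above 1 in the other 5. Of 177 alternative values of log2 ratios, types included, 151 lay within the counting interval and 26 outside it, and the cause was not tested. Of 120 shares of barcodes 85 moved. Their alternatives asked for at least 2 UMIs or thinned barcodes to 500 UMIs, and both settings make a gene harder to find. Ratios between libraries in OPCs and NFOs had no alternatives, because no gene of the 10 reached 50 UMIs, and with 1 library per condition none could be left out. No paired analysis was possible because each condition is 1 pooled library. The OPC values rest on 58 and 17 barcodes. Thinning to 500 UMIs left uninjured OPCs and NFOs at the floor for Ephb1 and Unc5b. There the ratio to uninjured oligodendrocytes could not show a 2-fold difference for Ephb1 (0.641 in OPCs, 0.855 in NFOs) or for Unc5b in NFOs (0.512).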
